A study of Mus musculus with 8 samples.

Results

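The genes described here are 35 type I interferon-stimulated genes (ISGs), taken from a list of symbols and matched to the Entrez identifiers of a count table of 27179 genes. All 35 were found, all 35 passed the filter on low counts (17700 genes kept), and none was at 0 in any library. They were followed in pre-B cells sorted from the bone marrow of C57BL/6 mice, with 2 RNA-seq libraries in each of 4 groups. The cKO/*Igh* B1-8hi mice were *Upf1* Flox/Flox with *Mb1* Cre/+, and the Ctrl/*Igh* B1-8hi mice were *Upf1* Flox/Flox with *Mb1* +/+, so that the controls carried no Cre. Both genotypes carried *Igh* B1-8hi/+, a knock-in heavy chain gene that is already rearranged. *Mb1* is the *Cd79a* locus, where the inserted Cre is expressed in the B lineage. Each genotype was sampled as early LPre-B cells (large, CD43+, CD2-) and as sPre-B cells (small, CD43lo, CD25+, CD2+). The study's methods describe the points of its graphs as biological replicates that are independent, and the labels number the libraries 1 and 2 without naming the mice behind them. The Ctrl replicates differed in sex (below) and so came from different mice. *P* values measure the spread between these libraries.

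Type I interferons bind the receptor chains IFNAR1 and IFNAR2, which act through the kinases JAK1 and TYK2. These phosphorylate STAT2, which acts with IRF9 in a complex that binds the interferon-stimulated response element in the promoters of ISGs. The products of these genes block the entry, translation and replication of viruses, sense foreign RNA, or feed back on the pathway. UPF1 is an RNA helicase of nonsense-mediated mRNA decay, and the comparisons address what its loss changes in pre-B cells that have a rearranged heavy chain.

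Promoter windows from RefSeq (build GRCm38.p6, 250 bases before to 50 bases after an annotated start) were searched for the core of the interferon-stimulated response element, GAAA, any 2 bases and GAAA (TTTC, any 2 bases and TTTC on the other strand). Windows were matched for 27 of the 35 ISGs, and 15 of these 27 genes (55.6%) held the core, against 3.99% of 27025 genes and 3.44% of 32851 windows. The core of the gamma-activated site, TTCNNNGAA, was in 5 of the 27 genes (18.5%), against 9.55% of all genes, and in *Bst2* and *Ifitm3* it overlapped a response element core. Of the 6 genes called higher in a genotype comparison below, *Bst2*, *Stat2*, *Gbp2*, *Gbp3* and *Ddx60* held the response element core and *Mx2* had no matched window, while *Trim25* and *Ifitm1*, called lower, held none. The other 10 genes with the core were not called in either genotype comparison. *Isg15* is shown as a classical ISG, with 3 cores, whose level differed between the cKO replicates. A match is a run of letters, and binding was not measured. The windows are written 5′ to 3′ on the strand of the gene, in lower case with the response element cores in capitals. They are *Bst2* (chr8:71537423-71537722, minus strand), *Stat2* (chr10:128270248-128270547, plus strand), *Gbp2* (chr3:142620413-142620712, plus strand), the upstream window of *Gbp3* (chr3:142559794-142560093, plus strand), *Ddx60* (chr8:61927837-61928136, plus strand), *Isg15* (chr4:156200769-156201068, minus strand) and *Ifitm1* (chr7:140967826-140968125, plus strand).
Bst2: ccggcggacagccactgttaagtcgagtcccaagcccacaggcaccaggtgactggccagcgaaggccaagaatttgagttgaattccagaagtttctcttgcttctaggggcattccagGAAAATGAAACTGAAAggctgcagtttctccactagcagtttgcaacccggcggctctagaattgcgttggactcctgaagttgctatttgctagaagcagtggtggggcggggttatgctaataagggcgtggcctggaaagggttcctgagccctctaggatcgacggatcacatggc
Stat2: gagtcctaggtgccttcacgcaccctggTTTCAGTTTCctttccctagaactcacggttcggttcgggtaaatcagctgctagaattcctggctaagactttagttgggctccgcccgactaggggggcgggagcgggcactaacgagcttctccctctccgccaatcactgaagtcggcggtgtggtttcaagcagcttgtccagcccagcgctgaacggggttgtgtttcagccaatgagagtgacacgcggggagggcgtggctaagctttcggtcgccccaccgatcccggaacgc
Gbp2: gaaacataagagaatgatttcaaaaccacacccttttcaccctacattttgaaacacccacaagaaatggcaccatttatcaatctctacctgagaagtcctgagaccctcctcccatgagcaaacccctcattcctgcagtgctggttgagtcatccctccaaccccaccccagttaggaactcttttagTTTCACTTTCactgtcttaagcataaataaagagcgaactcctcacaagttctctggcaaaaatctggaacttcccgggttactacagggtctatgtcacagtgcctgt
Gbp3: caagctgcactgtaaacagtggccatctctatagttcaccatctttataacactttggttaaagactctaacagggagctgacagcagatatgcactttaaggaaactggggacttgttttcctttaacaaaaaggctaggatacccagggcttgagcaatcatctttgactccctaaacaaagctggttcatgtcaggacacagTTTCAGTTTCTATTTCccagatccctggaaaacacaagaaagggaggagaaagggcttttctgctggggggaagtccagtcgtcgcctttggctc
Ddx60: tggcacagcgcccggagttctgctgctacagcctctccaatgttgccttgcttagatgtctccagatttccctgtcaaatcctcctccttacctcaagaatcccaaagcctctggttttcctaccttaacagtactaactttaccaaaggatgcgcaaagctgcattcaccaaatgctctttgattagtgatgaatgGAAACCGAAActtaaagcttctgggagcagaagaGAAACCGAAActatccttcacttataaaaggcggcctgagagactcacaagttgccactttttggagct
Isg15: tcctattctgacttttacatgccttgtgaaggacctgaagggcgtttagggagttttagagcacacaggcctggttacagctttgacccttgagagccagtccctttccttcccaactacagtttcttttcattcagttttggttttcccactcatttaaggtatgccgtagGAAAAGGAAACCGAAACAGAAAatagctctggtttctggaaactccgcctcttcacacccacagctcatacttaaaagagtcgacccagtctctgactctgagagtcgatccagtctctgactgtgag
Ifitm1: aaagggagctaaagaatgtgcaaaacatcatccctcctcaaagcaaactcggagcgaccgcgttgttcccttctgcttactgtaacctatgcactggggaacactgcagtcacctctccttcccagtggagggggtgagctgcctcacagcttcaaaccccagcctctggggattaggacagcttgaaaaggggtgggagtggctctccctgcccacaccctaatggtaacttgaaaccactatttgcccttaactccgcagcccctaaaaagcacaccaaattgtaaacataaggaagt

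Libraries held 68516857 to 160426338 counts, and 3 counts, taken as the floor, corresponded to 0.0217 to 0.0426 CPM (counts relative to library size, scaled with TMM factors), which covers counting error only. *Upf1* lay at 186 to 237 CPM in the Ctrl and at 244 to 293 CPM in the cKO libraries. Its gene count includes exons outside the deleted part and so does not check the deletion, and Ctrl and cKO are used below as the labels give them. *Cd79a*, the locus with the Cre insertion, was at 543 to 1602 CPM in Ctrl and 160.0 to 405 CPM in cKO libraries. Both Ctrl replicate 2 libraries had the *Xist* and Y-linked counts of males, and the other 6 libraries those of females, so sex differed between the Ctrl replicates but not between the cKO replicates. The 11 B-lineage markers included *Cd79a*, so its lower level in cKO is part of their sums. They summed to 3231 and 2943 CPM in Ctrl and 1912 and 1955 CPM in cKO early LPre-B cells. In sPre-B cells they summed to 9093 and 9255 CPM in Ctrl and 5993 and 5753 CPM in cKO. The sum was lower in cKO, with 0 of 11 markers called higher and 5 lower in early LPre-B cells, and 2 higher and 3 lower in sPre-B cells. Over all genes 14.5% were called higher and 16.9% lower at the first stage, and 19.8% and 14.9% at the second, so the share of markers higher in sPre-B cells was near that of all genes, and the part of this in the results was not tested. The median Log2FC of the 11 markers was -0.45 in early LPre-B and -0.16 in sPre-B cells. Of these markers *Cd79b*, *Pax5* and *Ebf1* were at 261 CPM or more in every library, a floor that does not compare cKO with Ctrl.

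The ISGs set cKO replicate 2 apart from cKO replicate 1. Of the 35 genes, 33 were higher in cKO replicate 2 of early LPre-B cells, with a median difference of 1.07 on the log2 scale (2.09-fold) and 20 genes more than 1 apart. In sPre-B cells it was 31 of 35 genes, with a median difference of 1.16 (2.23-fold) and 21 genes more than 1 apart. Over all genes tested, 57.7% and 52.1% were higher in cKO replicate 2, and 2.11% and 2.27% were more than 1 higher. Other pathway lists described below were also mostly higher in cKO replicate 2 of early LPre-B cells. These were 15 of 16 receptor and signalling genes, 14 of 17 nucleic acid sensors, 13 of 18 negative regulators and 25 of 33 interferon-gamma-induced genes. In cKO sPre-B cells they were 6, 12, 13 and 21. Between the Ctrl replicates the median differences of the ISGs were -0.11 in early LPre-B and -0.07 in sPre-B cells, and 11 of 35 genes were higher in replicate 2 at each stage. The library of cKO sPre-B replicate 2 held the highest CPM of 23 of the 35 genes, and that of cKO early LPre-B replicate 1 the lowest of 18. Over the 35 genes, same-numbered libraries of the 2 stages deviated from their group means together (correlation 0.709 in Ctrl and 0.787 in cKO). Whether they came from the same mouse is not stated, so the gaps at the 2 stages may not be independent observations.

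**Figure D1:**
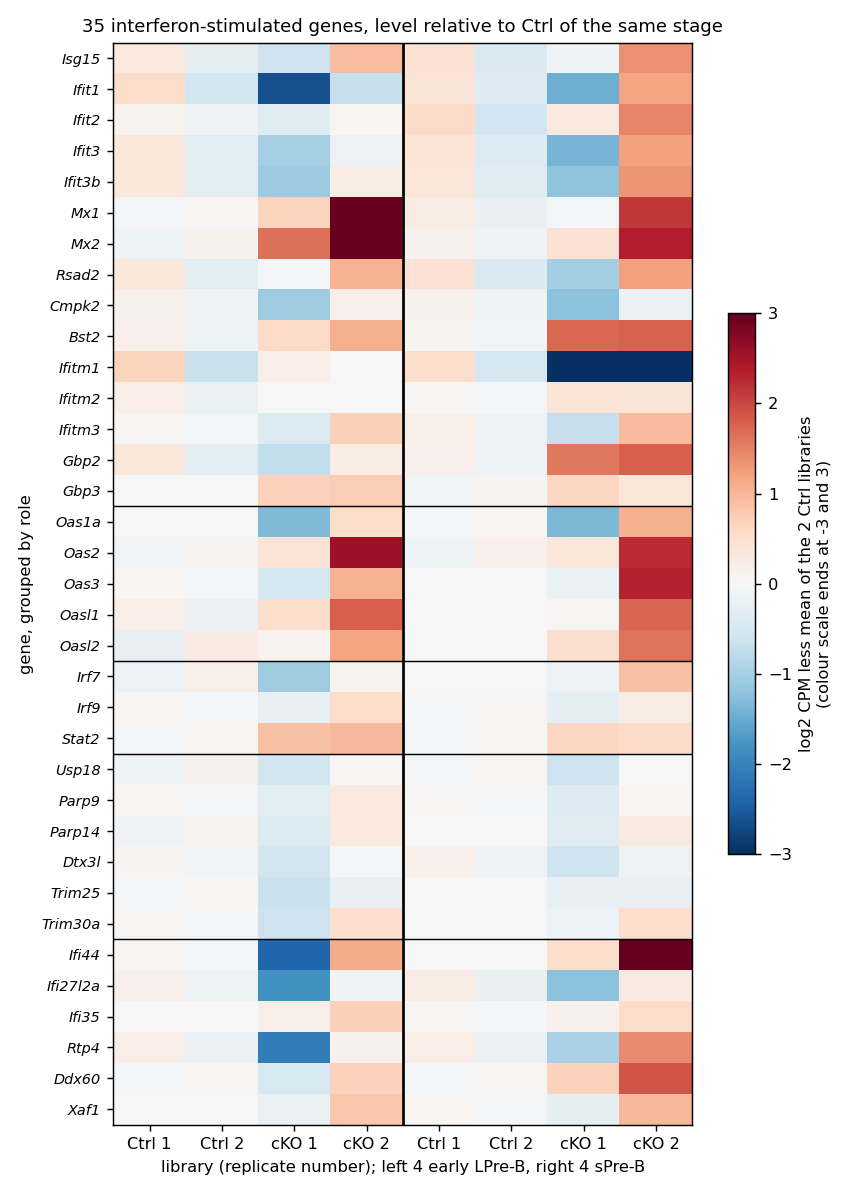
Heat map of the 35 ISGs (rows, grouped by role) in the 8 libraries (columns), with colour for log2 CPM less the mean of the 2 Ctrl libraries of the same stage, with colour ends at -3 and 3. Many rows are lower in cKO 1 and higher in cKO 2 than in Ctrl at both stages, while *Stat2*, *Bst2* and *Gbp3* are higher in every cKO column and *Ifitm1* is lower in both cKO columns of sPre-B cells.

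Set against the Ctrl libraries of their stage, the cKO replicates fell on different sides. At the early LPre-B stage, replicate 2 alone was above both Ctrl libraries for 14 of the 35 ISGs, against 6.69% of all genes tested, and replicate 1 alone for 0 ISGs, against 6.9% of genes. In sPre-B cells replicate 2 alone was above for 18 ISGs, against 6.34% of genes, and replicate 1 alone for 0 ISGs, against 7.69% of genes. *Isg15*, *Rsad2*, *Ifitm3*, *Oas1a*, *Oas3*, *Irf9*, *Parp9*, *Parp14*, *Trim30a* and *Xaf1* were among these genes at both stages. Both cKO libraries lay above both Ctrl libraries for 8 ISGs in early LPre-B cells, against 29.9% of all genes, and for 12 in sPre-B cells, against 36.5%. Both lay below for 2 ISGs in early LPre-B cells, against 36.4% of all genes, and for 4 in sPre-B cells, against 34.3%.

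**Figure D2:**
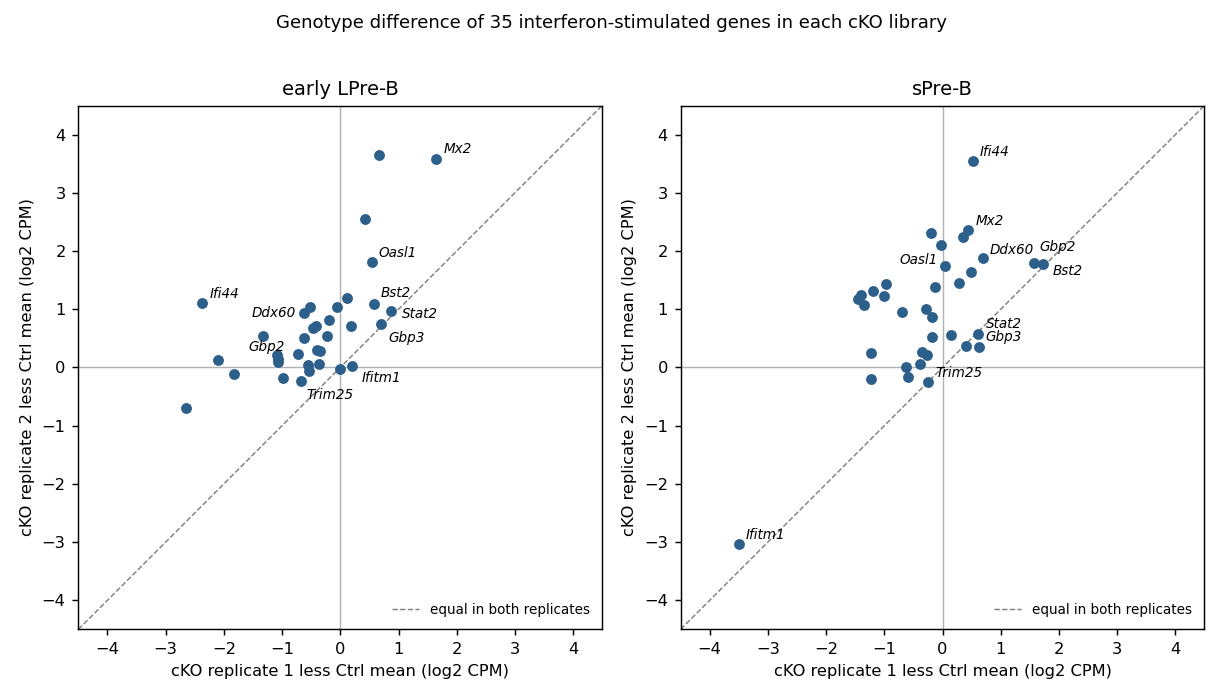
Scatter of the 35 ISGs at each stage, with log2 CPM of cKO replicate 1 less the Ctrl mean on the x axis, that of cKO replicate 2 less the Ctrl mean on the y axis, and a dashed line of equal values. In early LPre-B cells 33 points and in sPre-B cells 31 points lie above the dashed line, and *Stat2* and *Gbp3* lie near it to the right of 0.

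Loss of UPF1 was tested in each stage with edgeR's quasi-likelihood F test, with *P* values adjusted over all 17700 genes. In early LPre-B cells 4 of the 35 ISGs rose (*Stat2*, *Gbp3*, *Bst2* and *Mx2*), 1 fell (*Trim25*) and 30 did not pass the test, where 14.5% of all genes were called higher and 16.9% lower. The Log2FC of the ISGs ranged from -1.46 to 2.92 with a median of 0.05, against -0.06 over all genes. In sPre-B cells 5 rose (*Bst2*, *Stat2*, *Gbp2*, *Gbp3* and *Ddx60*), 1 fell (*Ifitm1*) and 29 did not pass, where 19.8% of all genes were called higher and 14.9% lower. There Log2FC ranged from -3.33 to 2.72 with a median of 0.44, against 0.01 over all genes. In each comparison and direction the share of ISGs called was below that of all genes. The 2 comparisons set different libraries against each other, but 1 fit over all 8 libraries gave the variance for both.

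These counts depended on the libraries kept, and a group left with 1 library is assumed to vary like the others. Fits with a single cKO replicate were chosen after the gap between the replicates was seen and take their spread from Ctrl alone, so their counts restate that gap and are no test of it. With replicate 1 alone for cKO, 3 ISGs were higher and 9 lower in early LPre-B cells, against 7.77% and 9.23% of all genes, and 4 higher and 5 lower in sPre-B cells, against 12% and 9.49%. With replicate 2 alone for cKO, 14 were higher and 0 lower in early LPre-B cells, against 7.64% and 5.97% of all genes, and 16 higher and 1 lower in sPre-B cells, against 9.98% and 6.02%. At the early LPre-B stage 7 were higher without cKO early LPre-B replicate 1 (against 9.06% of all genes), without cKO sPre-B replicate 1 (13.2%) or without cKO sPre-B replicate 2 (13.5%), and 2 without cKO early LPre-B replicate 2 (9.17%). In sPre-B cells 9 were higher without either cKO early LPre-B library (17.7% of all genes each time), and 11 without cKO sPre-B replicate 1 (12.3%). In these fits the share of all genes called higher was below the 14.5% and 19.8% of the fits with all libraries.

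Among the 3 transcription factors, *Stat2* (Entrez 20847, chr10:128270498-128292853), which encodes the partner of IRF9, rose at both stages. It was at 44.0 and 47.5 CPM in Ctrl and 83.5 and 89.5 CPM in cKO early LPre-B cells (replicates 1 and 2, in this order throughout), and at 105 and 112 CPM in Ctrl and 167 and 162 CPM in cKO sPre-B cells. Both cKO libraries stood above both Ctrl libraries at each stage, and the cKO replicates were close to each other. Log2FC was 0.92 ± 0.09, adjusted *P* = 0.00016, in early LPre-B and 0.60 ± 0.08, adjusted *P* = 0.00108, in sPre-B cells by edgeR (± SE, here and below), and both calls held whichever library was left out.

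*Irf9*, the DNA-binding partner of STAT2, was at 34.1 and 31.6 CPM in Ctrl and 27.9 and 47.8 CPM in cKO early LPre-B cells, and at 78.6 and 82.4 CPM in Ctrl and 66.7 and 93.4 CPM in cKO sPre-B cells. At each stage cKO replicate 1 was below and replicate 2 above both Ctrl libraries, and Log2FC was 0.21 ± 0.23 (adjusted *P* = 0.543) and -0.01 ± 0.23 (adjusted *P* = 0.983) by edgeR. *Irf7*, which amplifies the transcription of interferon genes, was at 5.32 and 6.74 CPM in Ctrl and 2.87 and 6.42 CPM in cKO early LPre-B cells, and at 6.71 and 6.88 CPM in Ctrl and 6.0 and 12.4 CPM in cKO sPre-B cells, and passed in neither comparison. The exons of *Irf9* overlap *Rnf31* and those of *Irf7* overlap *Phrf1*. Reads were aligned as unstranded and counting is not stated to use strand, so the counts of these genes are uncertain.

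The antiviral effectors, 15 of the 35 genes, had 3 members higher in early LPre-B cells, and 3 higher and 1 lower in sPre-B cells, where 14.5% and 19.8% of all genes were called higher, so that the share of this group was near that of all genes in sPre-B cells and not far above it in early LPre-B cells. *Bst2* (Entrez 69550, chr8:71534255-71537472) encodes tetherin, which holds budding virions at the cell surface. It was at 9.13 and 7.47 CPM in Ctrl and 12.3 and 17.5 CPM in cKO early LPre-B cells, and at 7.01 and 6.35 CPM in Ctrl and 22.2 and 22.9 CPM in cKO sPre-B cells. The groups were apart at both stages, and the cKO sPre-B replicates were nearly equal. Log2FC was 0.84 ± 0.18 (adjusted *P* = 0.00924) in early LPre-B and 1.75 ± 0.19 (adjusted *P* = 0.000265) in sPre-B cells by edgeR. The early LPre-B call was lost without cKO early LPre-B replicate 2 (0.57, adjusted *P* = 0.0621) and the sPre-B call held whichever library was left out.

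*Mx2* (Entrez 17858, chr16:97536081-97560901), a gene of the dynamin-like GTPase family, had the highest Log2FC of the ISGs in early LPre-B cells. It was at 1.57 and 1.87 CPM in Ctrl and 5.36 and 20.6 CPM in cKO early LPre-B cells, and at 8.02 and 6.72 CPM in Ctrl and 9.97 and 37.7 CPM in cKO sPre-B cells. Every cKO library was above the Ctrl libraries of its stage, and replicate 2 was 3.84-fold and 3.78-fold above replicate 1 in early LPre-B and sPre-B cells. Log2FC was 2.92 ± 0.72 (adjusted *P* = 0.0155) in early LPre-B and 1.69 ± 0.67 (adjusted *P* = 0.0826) in sPre-B cells by edgeR. The early LPre-B call was lost without cKO replicate 2 (1.65, adjusted *P* = 0.0949), Ctrl replicate 1 (2.82, adjusted *P* = 0.102) or Ctrl replicate 2 (3.08, adjusted *P* = 0.0781) of that stage. In sPre-B cells *Mx2* was 0.43, adjusted *P* = 0.640, without cKO sPre-B replicate 2, and it passed without replicate 1 (2.35, adjusted *P* = 0.0247), without either cKO early LPre-B library, by the likelihood-ratio test (1.69, adjusted *P* = 0.0338) and without the expression filter (1.70, adjusted *P* = 0.00629). Its relative *Mx1* was at 0.615 and 0.654 CPM in Ctrl and 1.0 and 7.97 CPM in cKO early LPre-B cells, and at 5.36 and 3.90 CPM in Ctrl and 4.49 and 19.7 CPM in cKO sPre-B cells, and did not pass (2.83 ± 0.95, adjusted *P* = 0.0509, and 1.39 ± 0.86, adjusted *P* = 0.245, by edgeR).

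*Gbp2* (Entrez 14469, chr3:142620663-142638008) and *Gbp3* (Entrez 55932, chr3:142560016-142573213) encode guanylate-binding GTPases that act on vacuoles containing pathogens. *Gbp3* was at 9.09 and 8.98 CPM in Ctrl and 14.7 and 15.1 CPM in cKO early LPre-B cells, and at 17.4 and 19.7 CPM in Ctrl and 28.4 and 23.7 CPM in cKO sPre-B cells. *Gbp2* was at 10.4 and 6.50 CPM in Ctrl and 4.95 and 9.65 CPM in cKO early LPre-B cells, and at 6.94 and 5.59 CPM in Ctrl and 18.5 and 21.5 CPM in cKO sPre-B cells. Both cKO libraries stood above Ctrl for *Gbp3* at each stage, while the groups of *Gbp2* overlapped in early LPre-B cells and were apart in sPre-B cells. The Log2FC of *Gbp3* was 0.72 ± 0.13 (adjusted *P* = 0.00409) in early LPre-B and 0.49 ± 0.13 (adjusted *P* = 0.0190) in sPre-B cells by edgeR, and the latter call was lost without replicate 1 of Ctrl (0.37, adjusted *P* = 0.131) or cKO (0.35, adjusted *P* = 0.135) sPre-B cells. That of *Gbp2* was -0.22 ± 0.32 (adjusted *P* = 0.644) in early LPre-B and 1.68 ± 0.33 (adjusted *P* = 0.00485) in sPre-B cells, where the call held whichever library was left out. The genes have similar paralogs, among which the reads could be divided.

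*Ifitm1* (Entrez 68713, chr7:140967429-140969827), a transmembrane protein that restricts viral entry, fell in sPre-B cells. It was at 0.998 and 0.397 CPM in Ctrl and 0.726 and 0.639 CPM in cKO early LPre-B cells, and at 4.07 and 1.96 CPM in Ctrl and 0.249 and 0.344 CPM in cKO sPre-B cells. The groups overlapped in early LPre-B cells and were apart in sPre-B cells, where both cKO libraries were low. Log2FC was -0.06 ± 0.48 (adjusted *P* = 0.943) in early LPre-B and -3.33 ± 0.52 (adjusted *P* = 0.00175, 10.1-fold lower) in sPre-B cells by edgeR, and the latter call held whichever library was left out. Its paralogs passed in neither comparison. *Ifitm2* was at 16.6 and 12.4 CPM in Ctrl and 14.3 and 14.2 CPM in cKO early LPre-B cells, and at 0.887 and 0.851 CPM in Ctrl and 1.15 and 1.13 CPM in cKO sPre-B cells, and *Ifitm3* was 2.19-fold and 3.13-fold higher in cKO replicate 2 than in replicate 1.

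**Figure D3:**
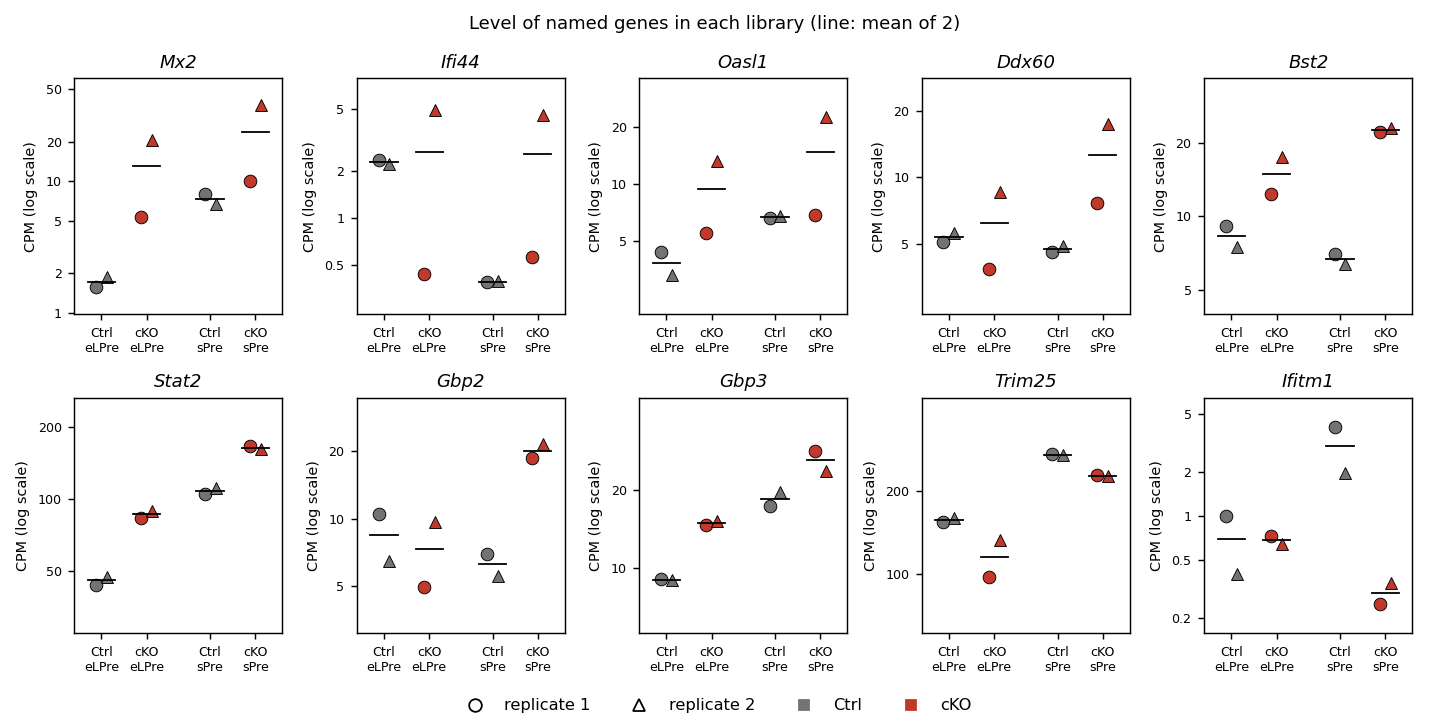
Levels of 10 ISGs in CPM (y axis, log scale, with a range of its own in each panel) in each library by group (x axis), with circles for replicate 1, triangles for replicate 2, grey for Ctrl, red for cKO and a line at the mean of 2. *Mx2*, *Ifi44*, *Oasl1* and *Ddx60* have cKO replicate 2 above replicate 1, *Stat2* and *Gbp3* have cKO replicates close to each other above Ctrl, and *Ifitm1* has both cKO sPre-B libraries below Ctrl.

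None of the remaining antiviral effectors passed in either comparison. *Isg15*, a ubiquitin-like modifier, was at 1.42 and 0.961 CPM in Ctrl and 0.762 and 2.24 CPM in cKO early LPre-B cells, and at 1.89 and 1.05 CPM in Ctrl and 1.29 and 3.65 CPM in cKO sPre-B cells. *Ifit1*, which binds viral RNA that lacks cap methylation, was at 1.18 and 0.551 CPM in Ctrl and 0.129 and 0.50 CPM in cKO early LPre-B cells, and at 1.28 and 0.752 CPM in Ctrl and 0.358 and 2.22 CPM in cKO sPre-B cells. For *Isg15* replicate 2 alone was above Ctrl at both stages, whereas both cKO libraries of *Ifit1* were below Ctrl in early LPre-B cells and replicate 2 alone was above in sPre-B cells. *Cmpk2*, a nucleotide kinase, was at 20.5 and 17.3 CPM in Ctrl and 9.01 and 20.8 CPM in cKO early LPre-B cells, and at 38.4 and 32.6 CPM in Ctrl and 15.1 and 30.9 CPM in cKO sPre-B cells. *Rsad2* (viperin), which makes a chain-terminating nucleotide, stayed at 0.293 to 1.37 CPM in all libraries, with replicate 2 2.14-fold and 4.70-fold above replicate 1 in cKO. *Ifit3* and *Ifit3b* are near-identical copies whose reads may have been divided, and they were 6.21-fold and 5.70-fold higher in replicate 2 than in replicate 1 of cKO sPre-B cells.

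The oligoadenylate synthetase genes encode sensors of double-stranded RNA that activate RNase L, and a relative without that activity, *Oasl1*. None of the 5 passed in either comparison in the main fit, and their median Log2FC was 0.74 in early LPre-B and 1.18 in sPre-B cells. With replicate number fitted as a block, a pairing the labels do not give, 1 gene passed at each stage by edgeR. These were *Oas2* in early LPre-B (1.51 ± 0.49, adjusted *P* = 0.0470) and *Oasl2* in sPre-B cells (1.05 ± 0.29, adjusted *P* = 0.0253). *Oasl1* (Entrez 231655, chr5:114923143-114937911) was at 4.41 and 3.31 CPM in Ctrl and 5.55 and 13.3 CPM in cKO early LPre-B cells, and at 6.63 and 6.84 CPM in Ctrl and 6.91 and 22.6 CPM in cKO sPre-B cells. Every cKO library was above the Ctrl libraries of its stage, by little for replicate 1 in sPre-B cells. Log2FC was 1.29 ± 0.54 (adjusted *P* = 0.103) in early LPre-B and 1.13 ± 0.53 (adjusted *P* = 0.134) in sPre-B cells by edgeR. Without cKO replicate 2 of the stage these values fell to 0.52, adjusted *P* = 0.551, and 0.03, adjusted *P* = 0.965. The early LPre-B value passed without either cKO sPre-B library (1.29, adjusted *P* = 0.0309, without replicate 1), the sPre-B value without cKO sPre-B replicate 1 (1.75, adjusted *P* = 0.0216), and both without the expression filter (1.29, adjusted *P* = 0.0133, and 1.14, adjusted *P* = 0.0249).

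*Oas2* was at 1.38 and 1.56 CPM in Ctrl and 1.97 and 8.64 CPM in cKO early LPre-B cells, and at 6.82 and 8.37 CPM in Ctrl and 9.62 and 35.8 CPM in cKO sPre-B cells, with replicate 2 4.39-fold and 3.73-fold above replicate 1 in cKO. *Oas1a* was at 7.78 and 7.77 CPM in Ctrl and 3.11 and 11.3 CPM in cKO early LPre-B cells, and at 5.28 and 5.82 CPM in Ctrl and 2.17 and 11.6 CPM in cKO sPre-B cells. The cKO replicates of *Oas2* were both above Ctrl, whereas those of *Oas1a* lay on opposite sides of Ctrl at each stage. *Oas3* and *Oasl2* were 2.97-fold and 2.11-fold higher in replicate 2 of cKO early LPre-B cells and 5.68-fold and 2.23-fold higher in replicate 2 of cKO sPre-B cells.

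Among 6 other induced genes, *Ifi44* (Entrez 99899, chr3:151730922-151749910), a cytoplasmic protein, had the widest gap between cKO replicates of the 35 genes at each stage (11.1-fold and 8.17-fold). It was at 2.34 and 2.22 CPM in Ctrl and 0.441 and 4.90 CPM in cKO early LPre-B cells, and at 0.390 and 0.397 CPM in Ctrl and 0.564 and 4.60 CPM in cKO sPre-B cells. In early LPre-B cells the cKO replicates lay on opposite sides of Ctrl, and in sPre-B cells both were above. Log2FC was 0.23 ± 1.01 (adjusted *P* = 0.890) in early LPre-B and 2.72 ± 1.15 (adjusted *P* = 0.0998) in sPre-B cells by edgeR. The early LPre-B value was -2.37, adjusted *P* = 0.150, without cKO replicate 2 of that stage and 1.11, adjusted *P* = 0.411, without replicate 1. The sPre-B value was 0.52, adjusted *P* = 0.771, without cKO replicate 2 of that stage. It passed without replicate 1 (3.55, adjusted *P* = 0.0421), without either cKO early LPre-B library, by the likelihood-ratio test (2.71, adjusted *P* = 0.0347) and without the expression filter (2.73, adjusted *P* = 0.0103).

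*Ddx60* (Entrez 234311, chr8:61928073-62037704), a helicase that assists RNA sensing, was at 5.11 and 5.58 CPM in Ctrl and 3.84 and 8.56 CPM in cKO early LPre-B cells, and at 4.61 and 4.88 CPM in Ctrl and 7.64 and 17.5 CPM in cKO sPre-B cells. In sPre-B cells both cKO libraries were above Ctrl, and in early LPre-B cells replicate 2 alone. Log2FC was 0.22 ± 0.42 (adjusted *P* = 0.734) in early LPre-B and 1.41 ± 0.43 (adjusted *P* = 0.0330) in sPre-B cells by edgeR. The sPre-B call was lost without cKO sPre-B replicate 2, where Log2FC fell to 0.69. It was also lost without Ctrl sPre-B replicate 1 (1.33) or 2 (1.42), and without Ctrl early LPre-B replicate 1 (1.373) or 2 (1.375). In these Ctrl fits Log2FC stayed near 1.41. *Rtp4*, a chaperone of membrane receptors, was 4.71-fold and 5.3-fold, *Ifi27l2a* 3.28-fold and 2.79-fold, *Xaf1* 2.02-fold and 2.43-fold, and *Ifi35* 1.44-fold and 1.34-fold higher in cKO replicate 2 than in replicate 1, and none of them passed in either comparison.

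The 6 enzymes of ubiquitin, ISG15 and ADP-ribose conjugation had Log2FC between -0.44 and 0.22 in both comparisons. *Trim25* (Entrez 217069, chr11:88999403-89020294), a ubiquitin ligase that activates the sensor RIG-I, was at 154 and 159 CPM in Ctrl and 98 and 133 CPM in cKO early LPre-B cells, and at 270.2 and 269 CPM in Ctrl and 227 and 226 CPM in cKO sPre-B cells. Both cKO libraries lay below Ctrl at each stage. Log2FC was -0.44 ± 0.14 (adjusted *P* = 0.0383) in early LPre-B and -0.25 ± 0.14 (adjusted *P* = 0.186) in sPre-B cells by edgeR. The early LPre-B call was lost when any of the 7 libraries other than cKO early LPre-B replicate 2 was left out. Log2FC was -0.23 without cKO early LPre-B replicate 1, and from -0.44 to -0.37 in the others of these fits. *Usp18*, which removes ISG15 from proteins and restrains the receptor, *Parp9*, *Parp14*, *Dtx3l* and *Trim30a* passed in neither comparison. *Parp9* and *Dtx3l* share exons, so that their counts are not independent.

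Whether the effect of UPF1 loss differed between the stages was tested as the interaction of stage and genotype (the cKO effect in sPre-B less that in early LPre-B cells). By edgeR's quasi-likelihood test 0 ISGs were higher and 1 was lower, against 2.64% and 1.6% of all genes, and 4 had an unadjusted *P* under 0.05. The likelihood-ratio test, DESeq2 and the quasi-likelihood test without the expression filter each gave 2 higher, against 5.67%, 6.27% and 4.71% of all genes. The gene called lower was *Ifitm1* (-3.27 ± 0.70, adjusted *P* = 0.0403), whose call was lost when any 1 of 6 of the 8 libraries was left out (adjusted *P* from 0.0719 to 0.121, edgeR) and without both Ctrl replicate 2 libraries (adjusted *P* = 0.0729, edgeR). For *Gbp2* and *Bst2* the differences were 1.89 ± 0.45 (adjusted *P* = 0.0544) and 0.91 ± 0.26 (adjusted *P* = 0.0877) by edgeR. The median over the ISGs was 0.16, against 0.07 over all genes.

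From early LPre-B to sPre-B cells of Ctrl, 15 of the 35 ISGs rose and 2 fell, against 29.1% and 31.1% of all genes, with a median Log2FC of 0.78 against 0.02 over all genes. The genes that rose were all 6 enzymes of ubiquitin, ISG15 and ADP-ribose conjugation, *Stat2*, *Irf9*, *Gbp3*, *Mx1*, *Mx2*, *Ifitm1*, *Oas2*, *Oasl2* and *Ifi35*. *Stat2* rose by 1.25 ± 0.09 (adjusted *P* = 6.12e-06), *Trim25* by 0.78 ± 0.14 (adjusted *P* = 0.00109) and *Parp14*, an ADP-ribosyltransferase, by 1.18 ± 0.25 (adjusted *P* = 0.00297) on the log2 scale by edgeR. *Ifitm2* fell by 4.06 ± 0.19 (adjusted *P* = 1.37e-06), from 16.6 and 12.4 CPM to 0.887 and 0.851 CPM. *Ifit2*, an RNA-binding inhibitor of translation, fell by 2.78 ± 0.44 (adjusted *P* = 0.000638), from 24.9 and 21.6 CPM to 4.66 and 2.10 CPM. Without Ctrl early LPre-B replicate 1, 9 ISGs rose, against 26.3% of all genes, and *Mx1*, *Mx2*, *Oas2*, *Oasl2*, *Usp18*, *Trim30a* and *Ifi35* each lost the call under at least 1 alternative fit.

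The cKO stages share no library with those of Ctrl, although the same fit over all 8 libraries gave the variance. There 16 ISGs rose and 2 fell, against 31.6% and 31.1% of all genes, with a median Log2FC of 0.88 against 0.05 over all genes. All 6 enzymes of ubiquitin, ISG15 and ADP-ribose conjugation, *Stat2*, *Irf9*, *Gbp3*, *Oas2*, *Oasl2* and *Ifi35* rose here too, and *Bst2*, *Gbp2*, *Ifit3* and *Ifi27l2a* rose as well. *Stat2* rose by 0.93 ± 0.09 (adjusted *P* = 2.83e-05) and *Gbp2* by 1.45 ± 0.32 (adjusted *P* = 0.00396) by edgeR. *Ifitm2* fell by 3.64 ± 0.18 (adjusted *P* = 1.86e-06) and *Ifit2* fell by 1.77 ± 0.42 (adjusted *P* = 0.00557) by edgeR. *Mx1*, *Mx2* and *Ifitm1* did not pass in cKO, with Log2FC of 1.43 ± 0.85, 0.88 ± 0.65 and -1.19 ± 0.51, and of these 3 genes *Ifitm1* alone passed the interaction test, with the losses given above. Without cKO early LPre-B replicate 1, 9 ISGs rose, against 24.2% of all genes, and without cKO sPre-B replicate 2, 7 rose, against 26%. *Ifit3*, *Ifi27l2a*, *Bst2*, *Dtx3l*, *Usp18*, *Oas2*, *Oasl2*, *Trim30a* and *Ifi35* each lost the call under at least 1 alternative fit. In bulk RNA, fewer cells of a type and less RNA per cell cannot be told apart.

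**Figure D4:**
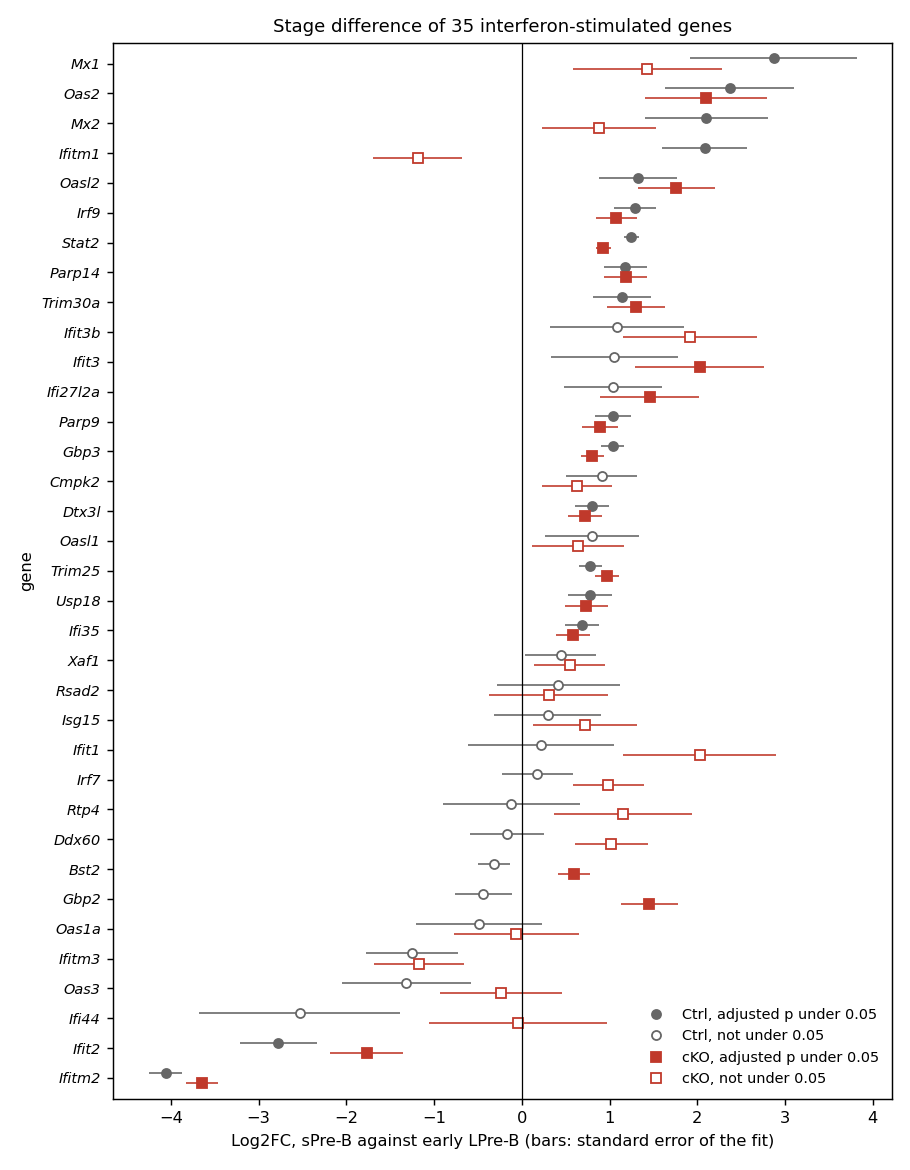
Log2FC of sPre-B against early LPre-B cells (x axis, with bars for the standard error of the fit) for the 35 ISGs (y axis), with grey circles for Ctrl, red squares for cKO and filled symbols for an adjusted *P* under 0.05. Log2FC was above 0 for 25 genes in Ctrl and 28 in cKO, *Ifitm2* and *Ifit2* lie to the left in both, and *Ifitm1* lies at 2.08 in Ctrl and at -1.19 in cKO.

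Levels per kilobase of exon differed widely among the ISGs. *Ifi27l2a*, a small interferon-induced membrane protein, had the highest mean in each group, at 28.6 to 98 CPM per kilobase. *Trim25* was at 20.1 to 46.8 CPM per kilobase over the 4 groups. *Ifitm2* was at 22.2 and 21.8 CPM per kilobase in Ctrl and cKO early LPre-B cells. *Rsad2* was at 0.106 to 0.192 and *Ifit1* at 0.118 to 0.486 CPM per kilobase over the 4 groups.

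Other genes of the pathway were followed as lists, whose counts stand against 14.5% (early LPre-B) and 19.8% (sPre-B) of all genes called higher in cKO, and 16.9% and 14.9% called lower. Of 21 interferon genes, 8, *Ifnb1* among them, had no count in any library, and 3 passed the expression filter. *Ifnz* (limitin, a type I interferon) was at 0.969 and 0.513 CPM in Ctrl and 2.91 and 2.91 CPM in cKO early LPre-B cells, and at 0.0709 and 0.170 CPM in Ctrl and 1.27 and 0.759 CPM in cKO sPre-B cells. Both cKO libraries were above Ctrl, with Log2FC of 1.95 ± 0.42 (adjusted *P* = 0.00899) and 3.08 ± 0.51 (adjusted *P* = 0.00226) by edgeR. Of 16 receptor and signalling genes, 1 was higher and 4 lower in early LPre-B cells, and 6 higher and 1 lower in sPre-B cells. *Tyk2*, a receptor kinase, rose at both stages (0.36 ± 0.09, adjusted *P* = 0.0215, and 0.80 ± 0.10, adjusted *P* = 0.00045), and the kinase *Jak1* fell at both (-0.50 ± 0.10, adjusted *P* = 0.00637, and -0.43 ± 0.10, adjusted *P* = 0.0107) by edgeR.

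Of 17 nucleic acid sensors and adaptors, 6 were higher and 1 lower in early LPre-B cells, and 4 higher and 2 lower in sPre-B cells. Against 14.5% and 16.9% of all genes in early LPre-B and 19.8% and 14.9% in sPre-B cells, the share called higher was above that of all genes in early LPre-B cells and the shares in sPre-B cells were near it. *Tlr7*, the endosomal receptor of single-stranded RNA, was at 0.861 and 0.782 CPM in Ctrl and 3.88 and 5.14 CPM in cKO early LPre-B cells, and at 1.17 and 1.22 CPM in Ctrl and 3.46 and 6.23 CPM in cKO sPre-B cells. *Ikbke*, a kinase downstream of the sensors, was at 10.1 and 9.89 CPM in Ctrl and 23.8 and 23.1 CPM in cKO early LPre-B cells, and at 0.686 and 0.908 CPM in Ctrl and 4.21 and 3.74 CPM in cKO sPre-B cells. Both cKO libraries were above Ctrl for these genes at each stage, and the cKO replicates of *Ikbke* were close to each other. Log2FC of *Tlr7* was 2.45 ± 0.31, adjusted *P* = 0.000714, and 2.02 ± 0.30, adjusted *P* = 0.00142, and that of *Ikbke* 1.23 ± 0.15, adjusted *P* = 0.000567, and 2.32 ± 0.17, adjusted *P* = 5.04e-05, by edgeR. *Ifih1*, which encodes the RNA sensor MDA5, was at 2.80 and 2.71 CPM in Ctrl and 9.4 and 13.4 CPM in cKO sPre-B cells and rose there (2.05 ± 0.30, adjusted *P* = 0.00126).

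Of 18 negative regulators, 2 were higher and 6 lower in early LPre-B cells, and 5 higher and 3 lower in sPre-B cells, against 14.5% and 16.9%, and 19.8% and 14.9%, of all genes, so that the share called lower in sPre-B cells was near that of all genes. *Socs1*, an inhibitor of JAK kinases, fell at both stages (-1.09 ± 0.13, adjusted *P* = 0.00054, and -1.46 ± 0.13, adjusted *P* = 0.000103, by edgeR), to 27.0 and 26.5 CPM in cKO from 74.6 and 72.3 CPM in Ctrl sPre-B cells. Of 58 further ISGs, 6 were higher and 10 lower in early LPre-B cells, and 16 higher and 3 lower in sPre-B cells, where in early LPre-B cells the share called higher was below and that called lower near the share of all genes. In cKO, 55 of these 58 were higher in replicate 2 than in replicate 1 in early LPre-B and 45 in sPre-B cells, and in Ctrl 31 and 27. *Oas1b*, an oligoadenylate synthetase relative, was at 5.71 and 6.82 CPM in Ctrl and 21.7 and 31.6 CPM in cKO early LPre-B cells and rose there (2.09 ± 0.24, adjusted *P* = 0.000453, by edgeR). Of 33 genes induced by interferon-gamma, 3 were higher and 0 lower in early LPre-B cells, and 10 higher and 0 lower in sPre-B cells, where the share called higher was below that of all genes in early LPre-B and above it in sPre-B cells. *Gbp5*, a guanylate-binding protein, rose at both stages (0.76 ± 0.12, adjusted *P* = 0.00179, and 1.56 ± 0.12, adjusted *P* = 5.68e-05), and *Ciita*, the activator of MHC class II genes, rose in sPre-B cells (1.84 ± 0.18, adjusted *P* = 0.000167) by edgeR.

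Markers of other cell types were summed in each library. The 7 plasmacytoid dendritic cell markers summed to 7.14 and 10.6 CPM in Ctrl and 18.1 and 17 CPM in cKO early LPre-B cells, and to 23.0 and 28.0 CPM in Ctrl and 39.1 and 41.0 CPM in cKO sPre-B cells. Their sum was higher in cKO, and was alike in the cKO replicates. Of its 7 genes, 2 were called higher in early LPre-B cells, against 14.5% of all genes, and 1 in sPre-B cells, against 19.8%, a share above that of all genes at the first stage and below it at the second. The marker *Siglech* was at 0.0276 to 0.936 CPM, so most of the sum came from other markers of the list. No marker of this list was at 0 in all libraries, and whether more cells of this type were present in cKO was not tested. The 8 myeloid markers summed to 111 and 134 CPM in Ctrl and 50.1 and 55.6 CPM in cKO early LPre-B cells, and to 304 and 355 CPM in Ctrl and 211 and 243 CPM in cKO sPre-B cells. Their sum was lower in cKO, and among its genes *S100a8* was at 18.7 and 21.2 CPM in Ctrl and 5.23 and 15.5 CPM in cKO sPre-B cells.

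The 8 T and NK cell markers summed to 1.82 to 4.76 CPM, the 5 erythroid markers in the table to 3.73 to 31.3 CPM and the 5 endothelial and stromal markers to 116 to 294 CPM over the 8 libraries. In cKO replicates 1 and 2, the T and NK cell sums were 3.44 and 1.82 CPM in early LPre-B and 2.15 and 2.33 CPM in sPre-B cells, and the erythroid sums were 9.86 and 3.73 CPM and 16.2 and 9.34 CPM. The endothelial and stromal sums were 136 and 157 CPM in Ctrl and 116 and 127 CPM in cKO early LPre-B cells, and 284 and 294 CPM in Ctrl and 251 and 265 CPM in cKO sPre-B cells. The sum was higher in replicate 2 of each group, which rests on *Pecam1*, at 126 and 153 CPM in Ctrl and 106 and 124 CPM in cKO early LPre-B cells, and at 269 and 289 CPM in Ctrl and 242 and 262 CPM in cKO sPre-B cells. The other 4 genes (*Cdh5*, *Cxcl12*, *Lepr* and *Col1a1*) were lower in replicate 2 of each group. *Siglech*, *S100a8* and *Pecam1* were chosen after their values were seen, and the part of the marker lists in the difference between the cKO replicates was not tested.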

How the data were processed

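RNA was measured in 8 libraries, 2 for each of 4 groups given by the labels. The deposited values are raw read counts per gene, which the authors made from paired-end, rRNA-depleted libraries with Trim Galore, HISAT2 (mm10) and featureCounts, versions not given in the sources used here. The library kit keeps strand, but reads were aligned as unstranded and counting is not stated to use strand, so overlapping genes were taken as uncertain. Symbols were matched to Entrez identifiers with a RefSeq table for 25275 of 27179 genes.

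Counts were analysed with edgeR 4.0.16 in R 4.3.3. The steps were filterByExpr by group (17700 genes kept), TMM scaling, 1 mean per group over all 8 libraries, and quasi-likelihood F tests for cKO against Ctrl in each stage, sPre-B against early LPre-B in each genotype, and their interaction. *P* values were adjusted by Benjamini-Hochberg over all 17700 genes with a threshold of 0.05, and the common biological coefficient of variation was 0.174. Log2 CPM used a prior count of 2. SE was the size of Log2FC divided by the square root of F. On simulated counts for cKO against Ctrl in sPre-B cells (17700 genes, 200 changed by 2 on the log2 scale), 158 of 198 changed genes tested were recovered (79.8%) and 16 unchanged genes were called. In the data 19.8% of genes were called higher and 14.9% lower, and the simulated replicates were independent. The recovery therefore does not carry over to the ISGs.

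Alternatives were median-ratio factors, the likelihood-ratio test, DESeq2 1.42.0, no expression filter, a replicate block, each library left out, and both male libraries left out. Fits with a single cKO replicate were chosen after seeing the data. Values were named in full for ISGs with an adjusted *P* under 0.05 in a genotype comparison or the interaction, and for *Mx2*, *Ifi44*, *Oasl1* and *Ddx60*, and in short for others. From each other list at most 4 genes with the smallest adjusted *P* per genotype comparison were named. The ISGs and all lists were chosen with earlier results of these data known.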

Additional observations from a re-analysis of the deposited data

Results flagged for a closer look

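The effect of UPF1 loss on *Ifitm1* differed between the stages by edgeR's interaction test. The cKO effect in sPre-B cells less that in early LPre-B cells was -3.27 on the log2 scale (adjusted *P* = 0.0403). Both cKO sPre-B libraries (0.249 and 0.344 CPM) were below both Ctrl sPre-B libraries (4.07 and 1.96 CPM), while the early LPre-B groups overlapped. The call was lost without 6 of the 8 libraries in turn, with adjusted *P* from 0.0719 to 0.121 and a difference from -3.53 to -2.74, and held without Ctrl early LPre-B replicate 1 or Ctrl sPre-B replicate 2.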

How the results depend on the processing

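Median-ratio factors moved no count of ISGs by more than 1.5 times. Against 4 higher and 1 lower in early LPre-B cells, there were 8 higher without the expression filter, 2 higher and 0 lower without both Ctrl replicate 2 libraries, 9 lower with cKO replicate 1 alone, and 14 higher and 0 lower with cKO replicate 2 alone. Against 5 higher and 1 lower in sPre-B cells, there were 8 higher by the likelihood-ratio test, 12 without the filter and 16 with cKO replicate 2 alone, and 5 lower with cKO replicate 1 alone. Between the Ctrl stages 15 ISGs were higher and 2 lower in sPre-B cells in the main fit. The number lower was 4 by the likelihood-ratio test and 5 without the filter, against 31% and 24.1% of all genes. Fewer than 15 were higher without both Ctrl replicate 2 libraries. In cKO the number lower was 4 by DESeq2 (31.2% of all genes) and 4 without the filter (24.1%), where the main fit gave 2. For the interaction 2 were higher by the likelihood-ratio test, by DESeq2 and without the filter, against 5.67%, 6.27% and 4.71% of all genes. The *Ifitm1* call was lost without both Ctrl replicate 2 libraries (-3.30) and with cKO replicate 1 or 2 alone (-3.63 and -2.97). With each library left out in turn, the ISGs higher and lower ranged from 2 to 7 and from 0 to 1 in early LPre-B cells, from 4 to 11 and at 1 in sPre-B cells, from 9 to 16 and from 2 to 5 between the stages of Ctrl, from 7 to 22 and from 2 to 4 between those of cKO, and from 0 to 1 each for the interaction. Over all genes, the shares called higher and lower in the same fits ranged from 9.06% to 15.1% and from 7.15% to 15.1% in early LPre-B cells, from 12.3% to 18.7% and from 7.44% to 18% in sPre-B cells, from 24.3% to 27.8% and from 23.4% to 30.1% between the Ctrl stages, and from 24.2% to 30.9% and from 25.3% to 31.6% between the cKO stages. Without the expression filter, 11.8% of all genes were higher in early LPre-B and 15.8% in sPre-B cells, and by the likelihood-ratio test 20.2% in sPre-B cells. *Ifi44* in early LPre-B cells reversed to -2.38 with cKO replicate 1 alone. *Bst2* in early LPre-B cells was 0.75 (adjusted *P* = 0.0502, edgeR) without both Ctrl replicate 2 libraries. The causes of these changes were not tested beyond the libraries or genes each fit leaves out.

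When replicate number was fitted as a block, 5 ISGs were higher in early LPre-B cells (gaining *Oas2*), against 15.7% of all genes. In sPre-B cells 6 were higher (gaining *Oasl2*), against 21%. Without the block these all-gene shares were 14.5% and 19.8%. Between the Ctrl stages 4 were lower (gaining *Ifitm3* and *Ifi44*), against 31.7%. Between the cKO stages 17 were higher (gaining *Irf7* and *Ddx60*), against 32.7%, and 3 lower (gaining *Ifitm3*), against 31.9%. There *Ifit3* lost its call (1.93, adjusted *P* = 0.0522, edgeR). No other call of the 35 ISGs in the 5 comparisons changed under the block. The pairing behind the block is not given: over all genes, same-numbered libraries deviated with correlations of 0.155 (early LPre-B) and 0.0858 (sPre-B) between genotypes and 0.395 (Ctrl) and 0.254 (cKO) between stages, and over the ISGs with 0.12, -0.282, 0.709 and 0.787. With 2 libraries per group, many ISGs at a few CPM and SEs up to 1.15 on the log2 scale in the genotype comparisons, a call that is missing does not show equal levels.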
